A study of Macaca fascicularis with 20 samples.

Results

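Heat shock proteins and chaperones were compared across natural killer (NK) cell subsets and B cells sorted from the spleen of cynomolgus macaques (Macaca fascicularis). The members were the genes whose M. fascicularis RefSeq symbol names a heat shock protein (HSPA, HSPB, HSPD, HSPE, HSPH or HSP90), a J-domain co-chaperone (DNAJA, DNAJB or DNAJC), a subunit of the CCT chaperonin, a BAG exchange factor or a prefoldin subunit. Of 89 such genes in the RefSeq table, 59 were matched to a probe of the array through the probe's transcript accession, out of 12530 genes matched in all. The 59 comprised 34 cytosolic genes, 9 genes of the endoplasmic reticulum (ER), 6 mitochondrial genes and 10 genes placed elsewhere or of other function. HSP90AA1, HSP90B1, HSPA1A, HSPA1B, HSPB1, DNAJA1, DNAJB9, HSPE1, DNAJC10, CCT2, CCT4, CCT5, CCT6A and CCT6B were not matched and are not analysed here.

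Spleen cells had been frozen and thawed, were not stimulated, and were sorted as live NKG2A+ CD8a+ cells that lacked CD3, CD14, CD20 and HLA-DR. The NK cells were split by 2 surface proteins, CD27, a co-stimulatory receptor, and CD11b, an integrin chain. This gave CD27+CD11b+ cells (5 arrays), CD27loCD11b+ cells (5 arrays), CD27+CD11blo cells (4 arrays) and CD27loCD11blo cells (4 arrays). B cells (2 arrays) were sorted as NKG2A- CD8a- cells carrying HLA-DR and CD20. Each array held the amplified and Cy3-labelled RNA of 1 sorted sample, and the labels gave ages between 4 and 18 years for 16 of the 20 arrays. Labels gave Cambodia, Vietnam or Singapore as the origin and male or female as the sex, and both B cell arrays were from females. Several arrays shared an origin, sex and age, so they are not known to come from separate animals. The p-values below measure the spread between these arrays and take them as independent. In sorted bulk RNA, fewer cells of a type and less RNA per cell cannot be told apart.

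Chaperones bind unfolded stretches of protein and help them fold, stay soluble or be degraded. HSP70 proteins do so in a cycle driven by ATP, which J-domain proteins start and nucleotide exchange factors of the HSP110 and BAG families end, while HSP90, the CCT ring and prefoldin handle later folding or particular clients such as actin and tubulin. The ER and the mitochondrion have HSP70s of their own, HSPA5 (BiP) and HSPA9 (mortalin). Cytosolic chaperones are induced through heat shock factors, and those of the ER through the unfolded protein response, which is also used by lymphocytes that make much secreted or surface protein.

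Levels are given on a log2 scale on which 0 is the 75th percentile of all probe signals of that array, so a level of 0 equals that percentile and each unit above it is a doubling. A gene was represented by the probe with the highest mean, and levels of different genes were not compared. The 75th percentile itself lay between 180 and 1897 signal units and had a median of 1280. The dimmest arrays were CD27+CD11b+ replicate 4 and CD27loCD11blo replicate 4 (199.6 units). The share of probes well above background was 67.9% on the array with the fewest and 96.0% on the one with the most. The arrays lay on 3 slides. Slide 3 held CD11b+ NK arrays only and slide 1 arrays from males only, and the labels of origin, sex and age differed between slides 1 and 2. Slide, donor and the CD11b sort therefore cannot be fully told apart. Marker genes set the NK sorts apart from the B cell sorts at the RNA level. The marker lists held neither CD27 nor the CD11b gene, so the split into NK subsets was not checked with them. The summed level of 11 NK cell genes, in units of the array's 75th percentile, ran from 49.1 to 203 in the NK arrays and from 4.09 to 5.39 in the B cell arrays, and that of 9 B cell genes ran from 1.62 to 9.85 and from 54.1 to 59.0 in the same order. T cell genes summed to between 5.21 and 14.1 in the NK arrays and to between 2.24 and 2.54 in the B cell arrays.

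Of the 59 members, 58 entered the tests. DNAJC12, a co-chaperone of aromatic amino acid hydroxylases, was not well above background on any array. On all 20 arrays, 40 members were well above background. Across the 18 NK arrays the distance between a member's lowest and highest level ranged from 1.60 for HSPBAP1 to 8.78 for HSPA13, with a median of 3.89 log2 units.

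Between the CD27+ and CD27lo NK sorts, most ER members had higher mean levels in CD27+ cells, while 66% of all genes had lower ones. No member passed the test. The main difference was taken between the mean of the 2 CD27+ subsets and the mean of the 2 CD27lo subsets. The median difference was 0.95 over the 9 ER members, against -0.37 over all 12185 genes tested. A positive difference was found for 8 of the 9 and a negative one for 1, against 34% and 66% of all genes. Within CD11b+ cells 6 were positive and 3 negative, with DNAJC1 at -0.11 and HSPA13 at -0.62 there, and within CD11blo cells 7 were positive and 2 negative, with DNAJC25 at -1.08. No gene passed the threshold of 0.05 after Benjamini-Hochberg adjustment in limma, so the call rate was 0% for members and for all genes alike, and 22.1% of all genes had an unadjusted p under 0.05. At an unadjusted p under 0.05, 10 members were higher and 8 were lower in CD27+ cells, where all genes gave 777 higher (6.38%) and 1920 lower (15.8%). The ER members held 4 of the 10. After quantile normalization the all-gene median was -0.13 and the ER median 0.99, with 8 of 9 members higher, and after normexp background correction 7 of 9 were. This contrast, like the one between the CD27loCD11b+ and CD27+CD11blo subsets below, was known from earlier results of the same arrays when the genes were chosen, so the counts describe these arrays and are no independent evidence of a direction.

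DNAJC3 encodes p58IPK, an ER-lumen partner of BiP known also as an inhibitor of eIF2alpha kinases. Its levels were 1.40, 2.14, 1.94, 2.42 and 2.58 in CD27+CD11b+ cells, against -2.26, 0.63, 0.30, 1.49 and 1.61 in CD27loCD11b+ cells. They were 2.56, 1.93, 1.39 and 2.27 in CD27+CD11blo cells, against 0.18, -0.26, 0.05 and -0.06 in CD27loCD11blo cells. All 9 CD27+ arrays lay above the CD27lo median of 0.18, and within the CD11blo cells the groups did not overlap; within the CD11b+ cells 2 CD27lo arrays reached into the CD27+ range. The difference of 1.90 ± 0.412 (SE; 95% interval 1.04 to 2.76) had the seventh lowest p among all genes, with an unadjusted p of 0.000203 and a limma adjusted p of 0.198. It was 1.74 ± 0.55 within CD11b+ cells and 2.06 ± 0.615 within CD11blo cells.

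DNAJB12, a J-domain protein anchored in the ER membrane that takes part in the degradation of misfolded membrane proteins, showed the largest difference of any member. Its levels were -4.67, -1.80, -0.70, 1.38 and 0.48 in CD27+CD11b+ cells, against -4.24, -2.80, -4.81, -2.95 and -3.81 in CD27loCD11b+ cells. They were -2.31, -0.59, -1.18 and -0.41 in CD27+CD11blo cells, against -4.24, -2.66, -3.98 and -4.38 in CD27loCD11blo cells. CD27+CD11b+ replicate 1 lay as low as the CD27lo arrays, and the other 8 CD27+ arrays lay above every one of them. The difference was 2.67 ± 0.631 (limma adjusted p = 0.198), and the gene's 3 probes gave differences between 2.67 and 3.49.

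HSPA5 (BiP), the HSP70 of the ER lumen and the standard readout of the unfolded protein response, had levels of 4.99, 4.81, 3.0, 4.11 and 4.22 in CD27+CD11b+ cells, against 3.77, 4.26, 3.52, 4.32 and 1.66 in CD27loCD11b+ cells. In CD27+CD11blo cells they were 5.66, 5.29, 4.28 and 4.43, against 4.53, 3.35, 4.22 and 3.87 in CD27loCD11blo cells. The groups overlapped, with 8 of 9 CD27+ arrays above the CD27lo median, and the difference was 0.82 ± 0.367 (limma adjusted p = 0.217). Subset means were 4.23 ± 0.78 in CD27+CD11b+, 3.51 ± 1.08 in CD27loCD11b+, 4.92 ± 0.667 in CD27+CD11blo, 3.99 ± 0.506 in CD27loCD11blo and 3.50 ± 0.566 in B cells (SD). From the highest to the lowest of these means, neighbours lay no further apart than the larger of their SDs.

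DNAJB11 (ERdj3), a soluble partner of BiP, ran from -3.29 through a median of 1.11 to 1.88 in the 9 CD27+ arrays, against -4.20, -0.23 and 1.06 in the 9 CD27lo arrays, a difference of 1.52 ± 0.717 (limma adjusted p = 0.224). Its lowest CD27+ value came from the dim replicate 4 of the CD27+CD11b+ cells. DNAJC1 (ERdj1), which places a J domain at the ER membrane, differed by 1.07 ± 0.707, and HSPA13, a microsomal HSP70-like protein, by 0.95 ± 1.09. HSPA13 was at -5.84 and -6.26 on the 2 dimmest arrays, 1 in each sort, where its probe was not well above background. DNAJB14, a relative of DNAJB12, differed by 0.38 and DNAJC25 by 0.01. DNAJC25 was well above background on 8 of the 18 NK arrays. DNAJC14, an ER membrane J protein, was the exception with -0.42.

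**Figure D1:**
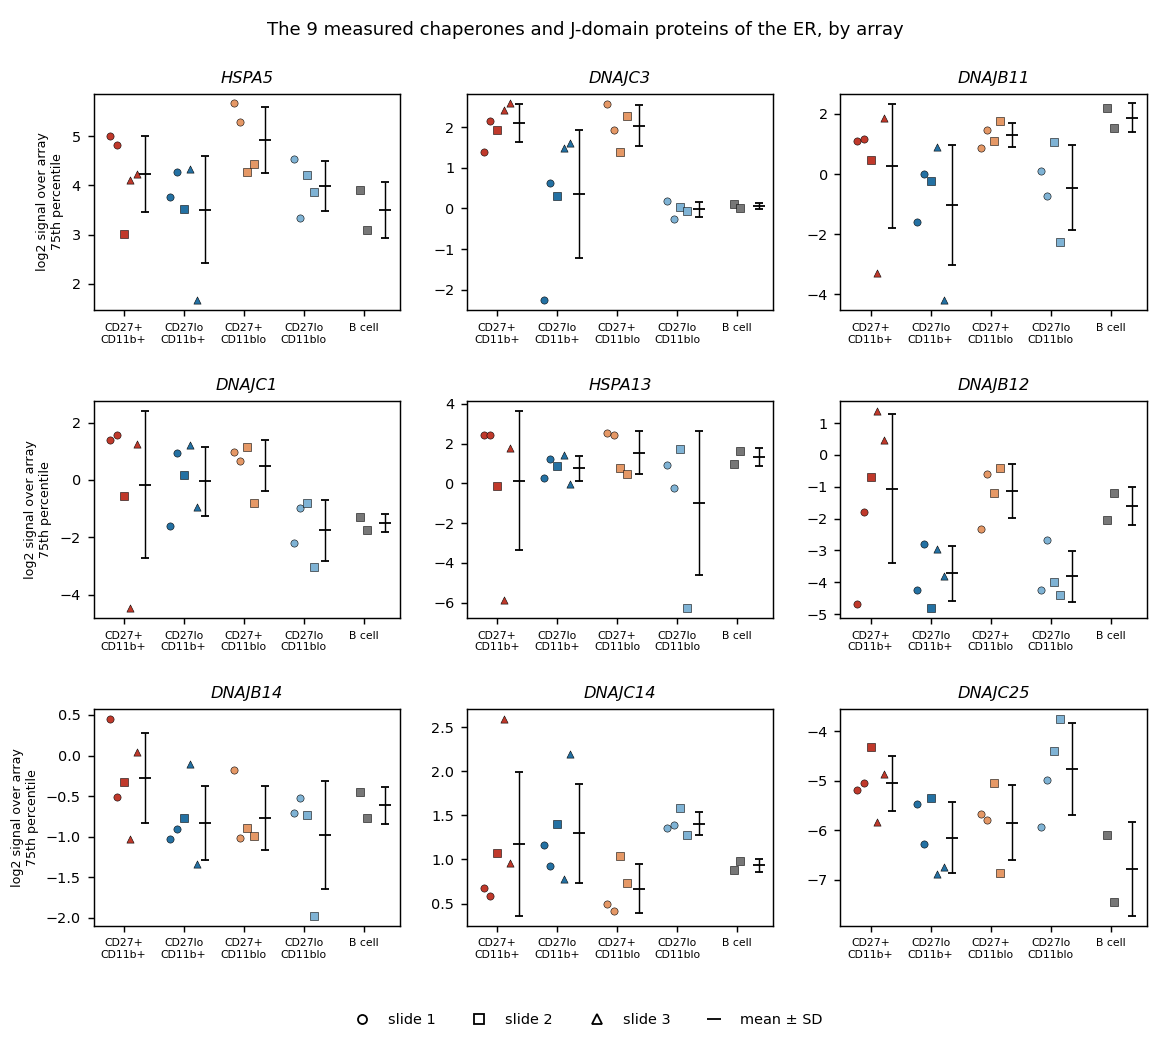
Log2 levels of the 9 ER members (vertical axis, relative to the array's 75th percentile) on each array, by sorted population, with points for arrays and lines for group means. The CD27+ arrays of DNAJC3 sit between 1.39 and 2.58 and those of DNAJB12 between -4.67 and 1.38, against -2.26 to 1.61 and -4.81 to -2.66 in the CD27lo arrays.

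Each array was also described by the median over ER members of the level minus that gene's NK mean. In CD27+ arrays this median ran from -0.31 through 0.65 to 1.40 and lay above 0 on 8 of 9. In CD27lo arrays it ran from -1.26 through -0.19 to 0.38 and lay above 0 on 3 of 9. Its means were 0.59 ± 0.628 in CD27+CD11b+, -0.18 ± 0.376 in CD27loCD11b+, 0.59 ± 0.415 in CD27+CD11blo and -0.44 ± 0.616 in CD27loCD11blo cells (SD). The cytosolic median did not separate the sorts, at -0.28 to 0.62 in CD27+ arrays against -0.40 to 0.21 in CD27lo arrays.

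**Figure D2:**
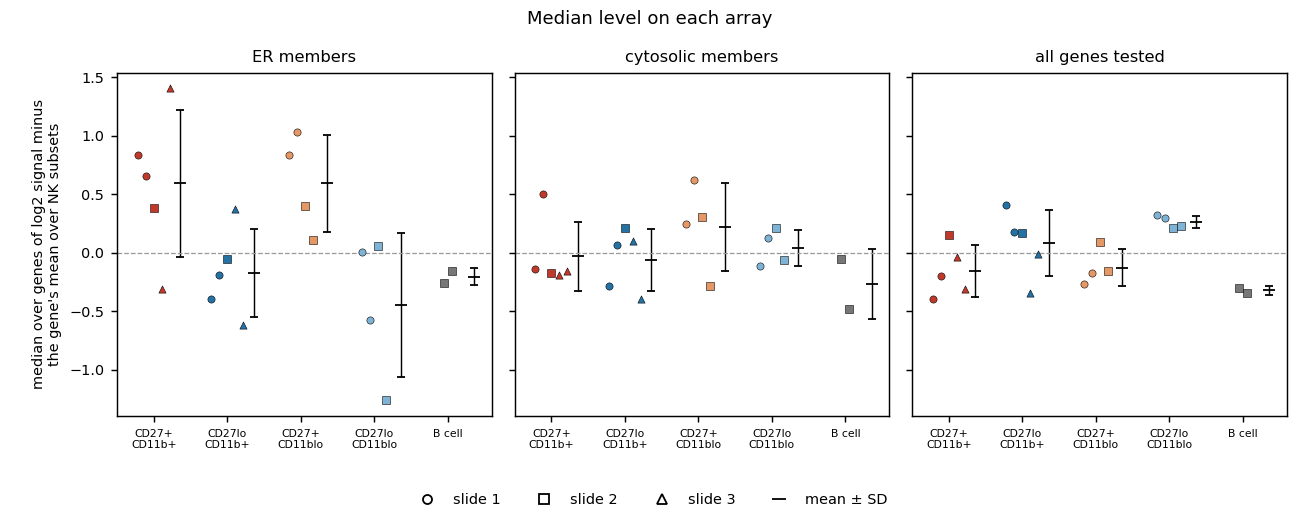
Median log2 level per array of the ER and cytosolic members, each gene taken relative to its NK mean (vertical axis), by sorted population; each point is an array. The ER median lies above 0 on 8 of 9 CD27+ arrays and on 3 of 9 CD27lo arrays, whereas the cytosolic medians of both sorts spread around 0.

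Brightness moved with this contrast in part. The 75th percentile had a median of 1335 units in the CD27+ arrays and 915 units in the CD27lo arrays, and on slide 1 every CD27+ array (at least 1314) was brighter than every CD27lo array (at most 1061). On slide 2 the CD27+ arrays had a median of 923 and the CD27lo arrays one of 1308. The ER median difference was 1.21 on slide 1, with 8 of 9 members higher, and 0.68 on slide 2, with 6 of 9 higher, while all genes gave -0.60 and -0.13 on these slides. DNAJC3 differed by 2.44 on slide 1 and 1.74 on slide 2, DNAJB12 by 1.14 and 3.75, and HSPA5 by 1.21 and -0.10. Outside the ER, CCT8, BAG1, DNAJA3, HSP90AB1, HSPA4 and PFDN5 were likewise positive on slide 1 and negative on slide 2. So were DNAJB6 (1.42 and -1.45) and HSPA9 (0.30 and -0.43). On slide 1 fitted alone 9 of 58 members and 1374 of 12185 genes passed the adjusted threshold, and on slide 2 no member did. Without the 2 dimmest arrays the ER median was 0.82. The shift of all genes was -0.59 in the lowest, -0.30 in the middle and -0.08 in the highest tertile of mean level. In the highest tertile 47% of all genes were higher. The 6 ER members there had a median of 1.01, with 5 higher. The 16 cytosolic members there had one of 0.58, with 11 higher, and the 4 mitochondrial members one of 0.48, with 3 higher. A positive shift in that tertile was thus not particular to the ER.

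Markers of other origins moved with the contrast too, and their part in the result was not tested. Of 10 immediate early genes, which respond within minutes to handling, 9 were higher in CD27+ cells (median 0.55), among them ZFP36, which encodes an mRNA-destabilising protein, at 1.07 and the orphan nuclear receptor NR4A1 at 1.31. Their summed level ran from 154 to 421 in CD27+ arrays and from 138 to 274 in CD27lo arrays. All 6 stromal or endothelial genes had negative differences (median -0.86, summed levels 0.861 to 4.31 in CD27+ arrays against 1.39 to 4.75 in CD27lo arrays). So had all 6 neutrophil genes (-0.62), all 3 erythroid genes (-0.80) and all 3 platelet genes (-0.53). Negative too were 8 of 9 B cell genes (-0.48) and 5 of 6 monocyte or macrophage genes (-0.52). Of 6 T cell genes 4 were higher (0.09), of 11 NK cell genes 7 (0.44) and of 7 plasma cell genes 3 (-0.17). All genes tested had a median of -0.37, with 66% lower. Those of the lowest tertile of mean level had one of -0.59, with 18.5% higher. Negative signs were thus not particular to these lists.

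Other genes of the ER pathway were counted next. In the unfolded protein response list, 13 of 13 genes tested were higher in CD27+ cells, with a median of 0.89, and none passed the adjusted threshold. EIF2AK3 (PERK), the ER-resident kinase that phosphorylates eIF2alpha, differed by 2.23 ± 0.725, and PPP1R15A (GADD34), the phosphatase subunit that reverses this, differed by 2.02 ± 0.728 (limma adjusted p = 0.199 for both). On slides 1 and 2 taken alone, 13 and 10 of the 13 were higher. Of 17 ER folding and exchange genes, 12 were higher (median 0.50), among them the disulphide isomerase PDIA6 at 2.35 ± 0.669 and HYOU1, the exchange factor of BiP, at 1.41 ± 0.65, and none passed.

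Among cytosolic members the signs were mixed, 19 higher and 14 lower, against 34% and 66% of all genes. The cytosolic median was 0.08, against -0.37 over all genes, and lay above the all-gene median under 31 of 32 settings. It was -0.027 without CD27+CD11blo replicate 2 and -0.16 within slide 2. HSPA8 (HSC70), the constitutive HSP70, ran from 1.53 through 3.31 to 4.37 in CD27+ arrays, against 1.03, 2.94 and 3.72 in CD27lo arrays, a difference of 0.55 ± 0.397 (limma adjusted p = 0.351). HSPA6, the strictly stress-inducible HSP70, differed by -0.46 ± 0.313, and the germ-line HSPA2 by -0.51. HSP90AB1, the constitutive HSP90, ran from 4.56 through 5.62 to 6.20 in CD27+ arrays, against 3.42, 5.24 and 5.66 in CD27lo arrays. The difference of 0.42 ± 0.303 did not pass (limma adjusted p = 0.35), and the values overlapped in part, with 4 of 9 CD27+ arrays above every CD27lo array.

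HSPH1 (HSP105), an HSP110-type exchange factor that frees HSP70 from its nucleotide, was the cytosolic HSP70 partner that differed most. Its levels were 3.58, 4.90, 3.57, 4.16 and 3.92 in CD27+CD11b+ cells, against 2.02, 4.53, 3.40, 4.52 and 0.07 in CD27loCD11b+ cells. They were 4.09, 5.45, 4.64 and 4.37 in CD27+CD11blo cells, against 1.64, 4.09, 3.95 and 1.02 in CD27loCD11blo cells. The CD27+ arrays kept within 2 log2 units and all lay above the CD27lo median of 3.40, while the CD27lo arrays spread over more than 4. The difference was 1.54 ± 0.562 (limma adjusted p = 0.199), and both probes gave the same size, 1.52 and 1.54. Its relatives HSPA4 and HSPA4L differed by 0.33 and -0.57.

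DNAJB1 (HSP40), the stress-inducible J protein, ran from 0.24 through 2.30 to 4.56 in CD27+ arrays, against -2.69, 2.92 and 3.50 in CD27lo arrays. The mean difference of 0.84 ± 0.819 and the medians pointed in opposite directions. DNAJB6, a suppressor of protein aggregation, differed by -0.44 ± 0.805, and DNAJC6 (auxilin), which uncoats clathrin vesicles, by -1.30 ± 0.512 (limma adjusted p = 0.204). DNAJC6 had no usable spot on CD27loCD11blo replicate 3, which its fit left out. All 5 BAG genes had positive differences, with a median of 0.37 and BAG4 close to 0 at 0.01, but BAG1 was at -0.98 on slide 2 and BAG4 at -0.54 within CD11blo cells. BAG6, which guides membrane proteins and defective products and is also known as a ligand of the NK receptor NKp30, differed by 0.82 ± 0.311 (limma adjusted p = 0.201), the anti-apoptotic BAG1 by 0.37 and BAG3, the stress-inducible partner of HSPB8, by 0.08.

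The 3 measured subunits of the CCT ring had positive differences, but CCT8 turned between slides, at 1.81 on slide 1 and -0.77 on slide 2. CCT3 was at 2.98, 1.20, -0.43, 1.60 and 1.57 in CD27+CD11b+ cells, against 1.16, 0.35, 0.74, 0.84 and -1.98 in CD27loCD11b+ cells. It was at 3.03, 0.41, 1.09 and 0.98 in CD27+CD11blo cells, against 0.78, -1.89, 0.63 and -3.32 in CD27loCD11blo cells. The lowest values came from CD27lo arrays and the groups overlapped. The difference was 1.75 ± 0.615 for CCT3 (limma adjusted p = 0.199), 1.28 ± 0.485 for CCT7 (0.201) and 0.70 for CCT8.

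Prefoldin, which delivers unfolded actin and tubulin to the CCT ring, gave unequal subunits. PFDN2 ran from -0.09 through 1.38 to 1.77 in CD27+ arrays, against -3.58, -0.48 and 1.64 in CD27lo arrays, a difference of 1.87 ± 0.585 (limma adjusted p = 0.198), with all 9 CD27+ arrays above the CD27lo median. PFDN4 differed by 0.91, PFDN5 by 0.61 and PFDN1 by -0.25. PFDN6 differed by -1.24 ± 0.454 (limma adjusted p = 0.199) but was well above background on only 2 of 9 CD27+ arrays and 7 of 9 CD27lo arrays.

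Small heat shock proteins, which hold unfolding proteins in solution without ATP, were mostly lower in CD27+ cells, as were 66% of all genes. Of 5 tested, 4 were lower at an unadjusted p under 0.05 in limma, against 15.8% of all genes. Their median was -0.75, against -0.37 over all genes. HSPB9, a testis protein in human, was at -2.26, -1.96, -1.88, -0.88 and -2.67 in CD27+CD11b+ cells, against -0.21, -2.11, -1.29, -2.17 and -0.86 in CD27loCD11b+ cells. In CD27+CD11blo cells it was at -1.88, -2.06, -2.42 and -1.87, against -0.34, -0.75, -0.97 and -0.61 in CD27loCD11blo cells. No CD27+ array lay above the CD27lo median, and the difference was -1.0 ± 0.317 (limma adjusted p = 0.198). The muscle-type HSPB2 differed by -1.01, HSPB8, the partner of BAG3, by -0.75, and HSPB7 by -0.64. HSPB2 lay in the lowest tertile of mean level and was well above background on 9 of the 18 NK arrays, and HSPB7, HSPB8 and HSPB9 lay in the middle tertile. All genes of those tertiles also had negative medians, as given above.

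Of the 6 mitochondrial members 5 were higher in CD27+ cells, with a median of 0.72. The 5 included DNAJC19, whose probes disagreed, as given below. DNAJC15 (MCJ), an inner membrane protein that restrains respiratory chain activity in mouse, was at 0.40, -1.04, -1.29, -0.88 and 0.46 in CD27+CD11b+ cells, against -2.67, -1.50, -1.13, -0.44 and -0.64 in CD27loCD11b+ cells. In CD27+CD11blo cells it was at 0.24, -0.85, -0.61 and 0.88, against -1.81, -1.52, -1.59 and -3.71 in CD27loCD11blo cells. The CD11blo subsets did not overlap, whereas the CD11b+ subsets did. The difference was 1.44 ± 0.415 (limma adjusted p = 0.198), 0.81 ± 0.553 within CD11b+ cells and 2.07 ± 0.618 within CD11blo cells. HSPD1 (HSP60), the matrix chaperonin, differed by 0.90, DNAJA3 (TID1), the J partner of mortalin, by 0.57, and HSPA9 (mortalin) by -0.08.

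The remaining 10 members gave 3 positive and 7 negative differences, with a median of -0.36. CCT8L2, a testis relative of CCT8 in human, differed by -1.46 ± 0.64 (limma adjusted p = 0.216) and was dim on 4 of the 18 NK arrays. HSPBAP1, an HSPB1-binding protein and not itself a chaperone, differed by -0.75 ± 0.261, but its 2 probes disagreed, at -0.75 and 1.65. Probes also disagreed for DNAJC19, a part of the mitochondrial import motor, whose 3 probes ran from -0.60 to 0.88, so neither gene has a settled direction.

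**Figure D3:**
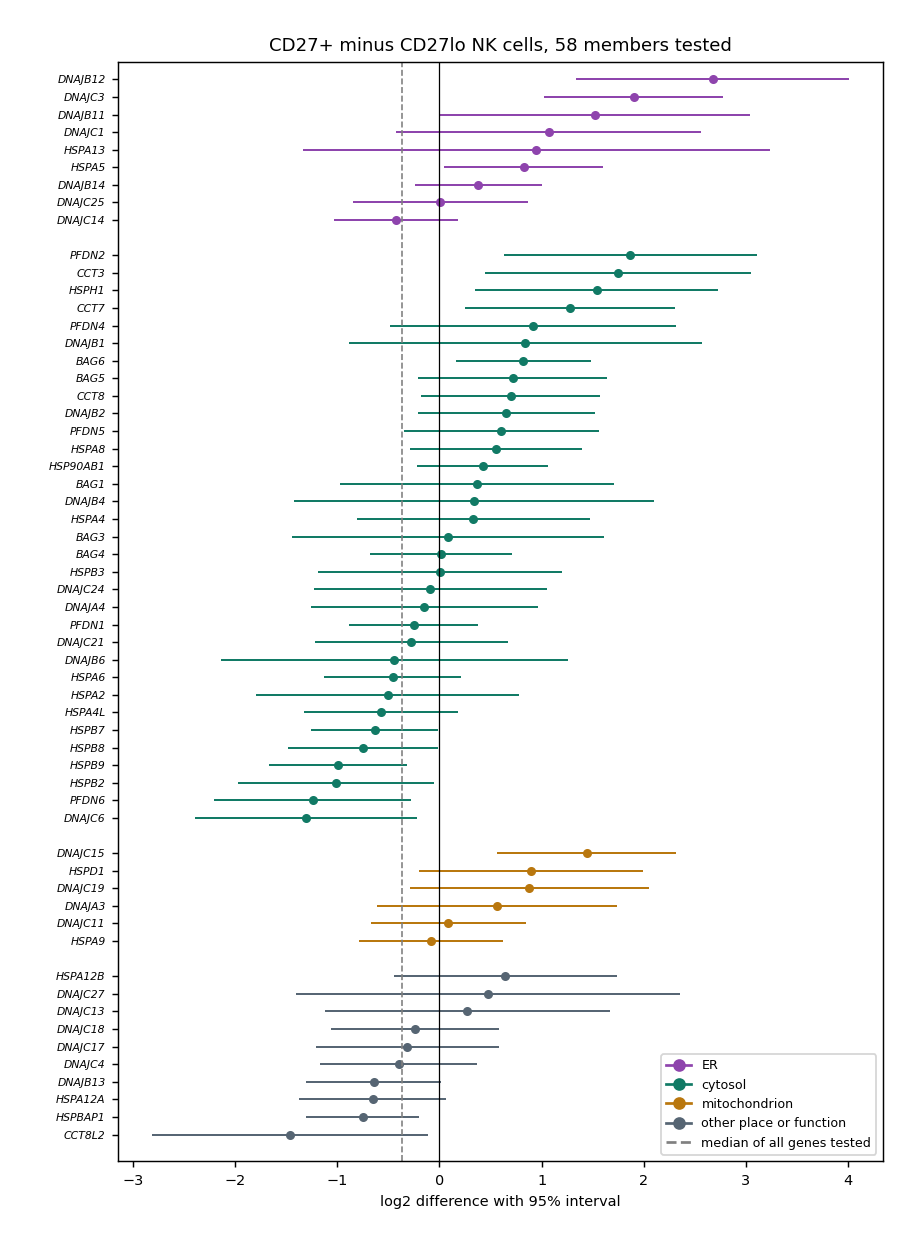
Log2 differences, CD27+ minus CD27lo NK cells, for the 58 tested members, grouped by compartment. Points are differences with bars for the 95% interval, and a line at -0.37 marks the median of all 12185 genes. ER members lie mostly right of 0, up to 2.67 for DNAJB12, and the cytosolic members lie on both sides.

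Other lists followed no single direction. Of 16 cytosolic co-chaperones 9 were higher in CD27+ cells (median 0.31), with ST13 (HIP), which steadies the ADP state of HSP70, at 1.38 ± 0.531 and PTGES3 (p23), which completes the HSP90 cycle, at 1.13 ± 0.467. Of 5 heat shock factor genes 2 were higher (median -0.17), and of 8 mitochondrial folding and protease genes 5 were higher (median 0.68). None of these genes passed the adjusted threshold.

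The CD27loCD11b+ subset was also set against the CD27+CD11blo subset, its opposite in both surface proteins. No gene passed after adjustment (0%), and 641 genes had an unadjusted p under 0.05 (5.26%). Among members 0 were higher and 6 lower at that level, where all genes gave 2.38% higher and 2.88% lower. The ER members had a median of -0.80, with 8 of 9 lower, the mitochondrial members -0.76, with all 6 lower, and the cytosolic members -0.13, with 20 of 33 lower. The mitochondrial count depended on the probe chosen. Probes disagreed for DNAJC19 (-1.02 to 1.52) and DNAJA3 (-0.027 to 0.60). All genes had a median of 0.19. At the level of signs, 21 of the 58 members were higher and 37 lower, against 60.7% and 39.3% of all genes. These 2 subsets are part of the CD27 comparison, so the values are not a second observation.

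DNAJB12 was the single member whose arrays did not overlap here, all lower in CD27loCD11b+ cells, as were 1.18% of all genes, and no member was higher without overlap, as were 0.927% of all genes. It differed by -2.59 ± 0.892, DNAJC3 by -1.68 ± 0.583 and HSPA5 by -1.41 ± 0.519 (limma adjusted p = 0.813 for all 3). PFDN2 (-2.12 ± 0.827) and DNAJB11 (-2.32 ± 1.01) completed the 5 lowest p on that side, followed by HSPH1 at -1.73 ± 0.795. HSPA8 was at 1.03, 2.31, 3.35, 3.44 and 2.32 in CD27loCD11b+ cells, against 4.12, 3.74, 3.76 and 3.0 in CD27+CD11blo cells, a difference of -1.16 ± 0.562, with the ranges overlapping between 3.0 and 3.44. On the other side HSPBAP1 (0.74), HSPB9 (0.73), DNAJC14 (0.62), DNAJB13 (0.59), a part of the axonemal radial spoke, and PFDN6 (0.85) had the lowest p. The 2 probes of HSPBAP1 disagreed here too, at 0.74 and -1.54.

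The ER difference between these subsets differed between slides. Its median was -1.46 on slide 1 and 0.0041 on slide 2, where all genes gave 0.50 and 0.19. Within slides 1 and 2 DNAJB12 differed by -2.07 and -4.01, DNAJC3 by -3.06 and -1.53, HSPA5 by -1.46 and -0.84, and HSPA8 by -2.26 and -0.03. Of 13 unfolded protein response genes 11 were lower in CD27loCD11b+ cells (median -0.77), with EIF2AK3 at -2.92 ± 1.03 and EDEM1, which sorts misfolded glycoproteins for degradation, at -1.16 with no overlap. Of 10 immediate early genes 9 were lower (median -1.02), and their part in the result was not tested.

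**Figure D4:**
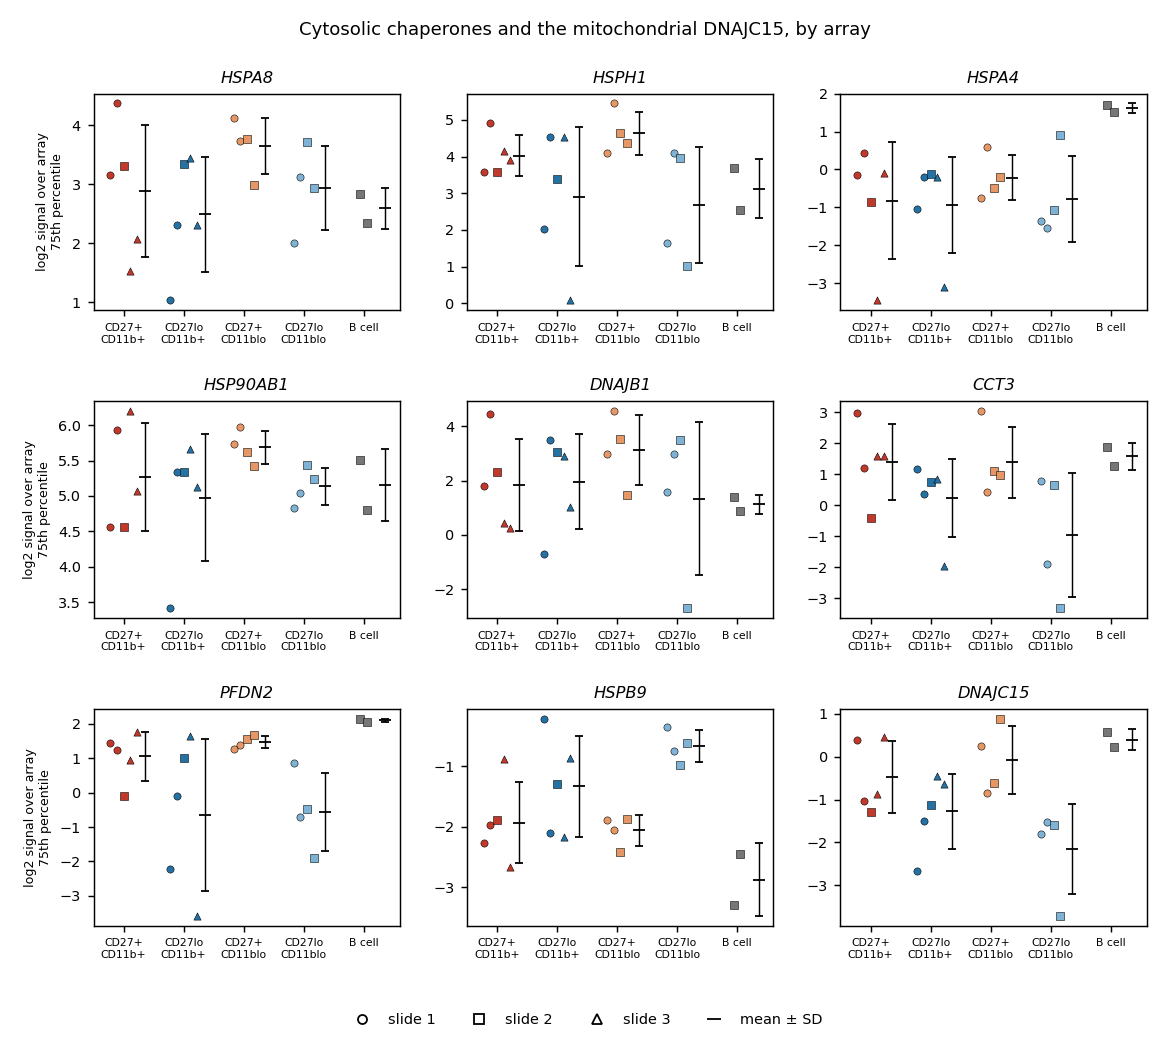
Log2 levels of 9 cytosolic and mitochondrial members (vertical axis, relative to the array's 75th percentile) on each array, by sorted population, with points for arrays and lines for group means. HSPH1, PFDN2 and DNAJC15 have all 9 CD27+ arrays above the CD27lo median, while HSPA8 and HSP90AB1 overlap in part, with 4 of 9 CD27+ arrays above every CD27lo array for each, and HSPA4 is highest on both B cell arrays.

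For CD11b no member differed beyond the spread of the arrays. Of the 10 CD11b+ arrays, 4 lay on slide 3, which held no CD11blo array, so part of this contrast cannot be told apart from slide. Between the CD11b+ and CD11blo sorts 2 of 12185 genes passed the adjusted threshold (0.0164%) and no member did. No member had an unadjusted p under 0.05 either, where 5.05% of all genes had. The members had a median of -0.15, with 22 higher and 36 lower against 36.7% and 63.3% of all genes (47.6% higher after quantile normalization), the cytosolic members one of -0.20 with 23 of 33 lower, the ER members one of 0.15 with 6 of 9 higher, and all genes one of -0.13. The ER median was -0.016 without CD27loCD11blo replicate 4 and -0.057 without CD27+CD11b+ replicate 5. The members with the lowest p were BAG6 at 0.59 ± 0.311, HSPA6 at -0.56 ± 0.313, HSPA9 at -0.57 ± 0.331, HSPA5 at -0.59 ± 0.367, DNAJC6 at -0.81 and HSPA8 at -0.61 ± 0.397, all with a limma adjusted p of 0.944. On the higher side PFDN4 (0.87), DNAJB14 (0.33), DNAJA3 (0.54) and HSPA12B (0.50), an atypical HSP70 of endothelium, followed BAG6. The 95% interval for HSPA5, -1.35 to 0.18, does not leave out a difference of more than 1 log2 unit. PRF1 (perforin), the pore protein of cytotoxic granules, was 1 of the 2 genes that passed (1.95 higher in CD11b+ cells, limma adjusted p = 0.0307).

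Whether the CD27 difference depended on CD11b was tested as an interaction. No gene passed (0%), and 176 genes had an unadjusted p under 0.05 (1.44%), 2 members among them. PFDN4 had an interaction of -3.98 ± 1.32 (limma adjusted p = 1.0). Its levels were 0.19, -1.34, -2.18, -5.84 and -0.93 in CD27+CD11b+ cells, against -0.44, -0.75, -1.80, -0.84 and -0.91 in CD27loCD11b+ cells. They were -0.80, -1.30, -0.64 and -0.88 in CD27+CD11blo cells, against -1.92, -3.31, -3.74 and -6.26 in CD27loCD11blo cells. The values of -5.84 and -6.26 were the 2 dimmest arrays, where the probe was not well above background, and without them the interaction was -2.20. DNAJC25 had 2.18 ± 0.808 and was not well above background on 10 of the 18 NK arrays.

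After these came BAG4 (1.11), HSPB7 (0.75), HSPB9 (0.79) and DNAJC14 (0.62) on the positive side. On the negative side they were DNAJC1 (-2.36), DNAJC17 (-1.38), DNAJB6 (-2.55) and DNAJC15 (-1.27). An F test for any difference among the 4 NK subsets called no gene (0%). The members with the lowest unadjusted p were DNAJC3 (0.00215), DNAJB12 (0.00478), DNAJC15 (0.0144) and PFDN4 (0.0244), where 8.72% of all genes were under 0.05, and the limma adjusted p was 0.56 for each.

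Between all NK cells and B cells, 362 of 12388 genes passed the adjusted threshold (2.92%), 213 higher (1.72%) and 149 lower (1.2%) in NK cells, and no member did. At an unadjusted p under 0.05 were 22.7% of all genes. NK cells stood lower than B cells for 4 members without overlap, where 3.19% of all genes did, and for no member did they stand higher without overlap, where 7.44% of all genes did. At an unadjusted p under 0.05, 5 members were higher and 5 lower, against 17.5% and 5.2% of all genes. Of the members 33 were higher and 25 lower, against 59.1% and 40.9% of all genes. The members had a median of 0.22 (-0.018 without B cell replicate 2), the cytosolic ones 0.28, the ER ones 0.20, the mitochondrial ones -0.69 and all genes 0.36. With 2 B cell arrays, both on slide 2, the B cell spread is poorly known.

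DNAJC4, a J-domain protein of no settled client, came closest to the threshold. Its levels ran from -3.89 through -2.11 to -1.10 in the 18 NK arrays, against -0.28 and -0.12 in the B cell arrays. Every NK array lay below both, and the difference was -1.96 ± 0.548 (limma adjusted p = 0.0573).

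HSPA4, the HSP110-type exchange factor, ran from -3.46 through -0.36 to 0.90 in NK arrays, against 1.70 and 1.52 in B cells, a difference of -2.30 ± 0.822 (limma adjusted p = 0.119) that also left no overlap. DNAJA3 ran from -5.06 through -2.40 to -0.74 in NK arrays, against -0.30 and 0.19 in B cells (difference -2.41 ± 0.847, limma adjusted p = 0.114). PFDN2 reached at most 1.77 in NK arrays, against 2.13 and 2.06 in B cells (difference -1.77 ± 0.893, limma adjusted p = 0.242). For these 3 the NK arrays lay below both B cell arrays, and the NK arrays spread over more than 4 log2 units.

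The other members with the lowest p on that side were DNAJC15 at -1.39 ± 0.632 and DNAJC18 at -1.25 ± 0.596. The CCT subunits CCT3 (-1.07), CCT7 (-1.36) and CCT8 (-0.96) were lower in NK cells as well, without passing. On the other side stood HSPB9 at 1.38 ± 0.492 (limma adjusted p = 0.119), the exchange factor HSPA4L at 1.19 ± 0.543 and DNAJB13 at 1.02 ± 0.485.

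Some members were not well above background on either B cell array and passed the filter through NK arrays alone. Their positive signs, counted above as well, are therefore no support for a direction. With lower B cell levels raised to the array's lowest signal well above background, the NK mean was 2.48-fold higher for CCT8L2. It was 1.21-fold higher for HSPB3, 1.09-fold for PFDN6 and 1.04-fold for DNAJC25. NK arrays where the probe was not well above background stayed in these means, so the folds are approximate. CCT8L2 was measured on 14 of the 18 NK arrays, HSPB3 and DNAJC25 on 8 and PFDN6 on 9. All 5 small heat shock proteins, HSPB3 among them, had positive differences (median 0.79). The count was 4 of 5 after quantile normalization and in the authors' deposited matrix. Positive too were 7 of 8 HSP70 genes (median 0.67) and 59.1% of all genes.

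For several abundant chaperones, the stress-inducible DNAJB1 among them, the differences did not pass the threshold. HSP90AB1 differed by 0.11 ± 0.469, HSPA9 by 0.01 ± 0.505, HSPA8 by 0.40 ± 0.609, HSPD1 by 0.43, HSPH1 by 0.44, DNAJB1 by 0.94 ± 1.25 and HSPA5 by 0.66 ± 0.568, and each of their 95% intervals holds a difference of 1 log2 unit. The ER members differed among themselves, with DNAJC3 at 1.06 ± 0.63 and DNAJB11 at -1.85 ± 1.1.

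Other ER genes were mostly lower in NK cells than in B cells. Of 13 unfolded protein response genes 11 were lower (median -0.70), and SYVN1 (HRD1), the ubiquitin ligase of ER-associated degradation, passed the threshold at -2.0 ± 0.499 (limma adjusted p = 0.0346), with every NK array below both B cell arrays. Of 17 ER folding and exchange genes 13 were lower (median -0.52), among them ERP29, a chaperone of secretory proteins, at -1.94 ± 0.649 without overlap, and none passed. Plasma cell genes, 7 in all, summed to between 0.789 and 3.99 in NK arrays and to between 9.84 and 15.5 in B cell arrays, and their part in these differences was not tested. Of 16 cytosolic co-chaperones 6 were higher and 10 lower (median -0.10), and of 5 heat shock factor genes 3 were higher.

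**Figure D5:**
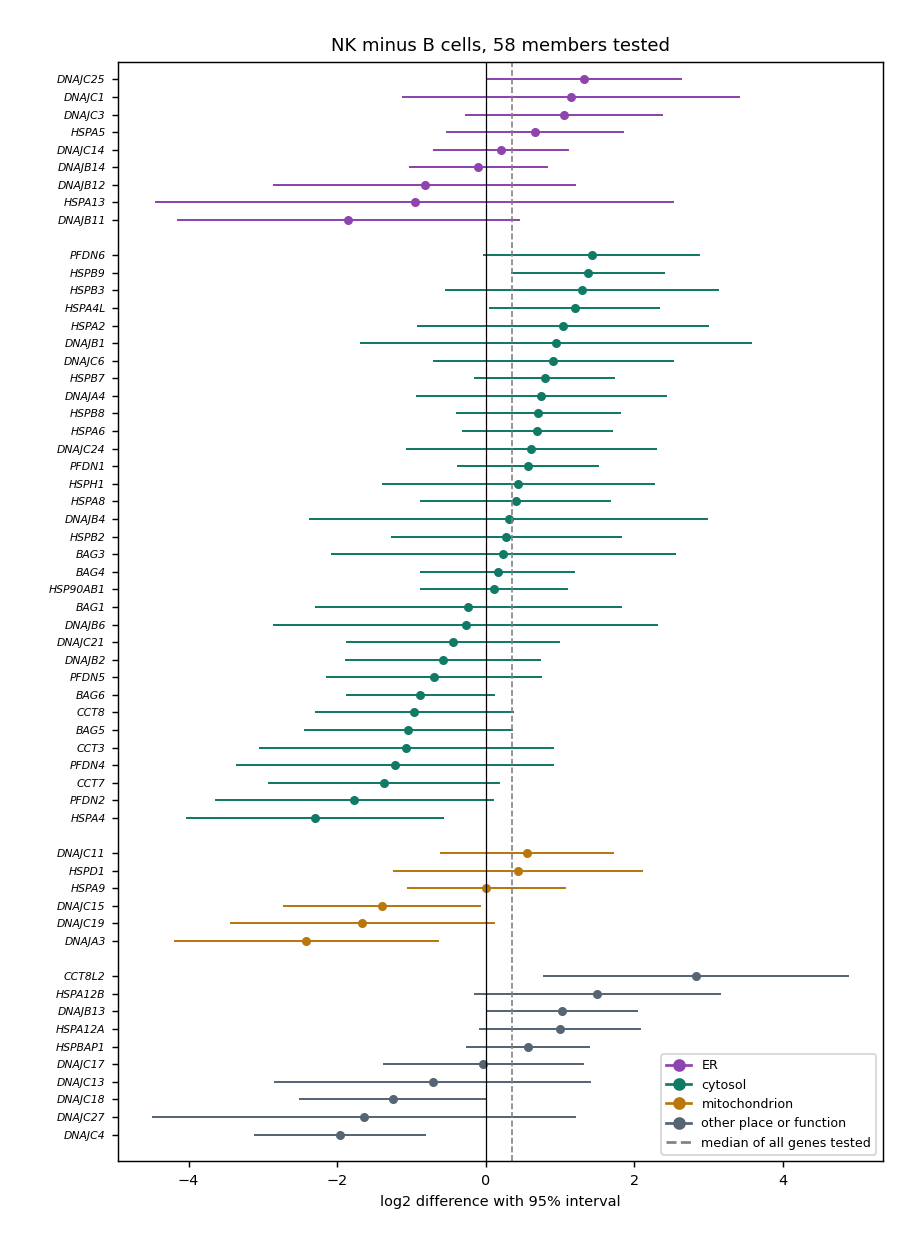
Log2 differences, NK cells minus B cells, for the tested members, grouped by compartment. Points are differences with bars for the 95% interval, and a line at 0.36 marks the median of all 12388 genes. DNAJC4, HSPA4, DNAJA3 and PFDN2 lie between -2.41 and -1.77 and are the members whose NK arrays all lie below both B cell arrays.

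Some members have close relatives, and a probe may read more than 1 of them. This holds for HSPA8 and HSPA6 beside the unmatched HSPA1A and HSPA1B, for HSP90AB1 beside HSP90AA1, and for CCT8 beside CCT8L2, so values of these genes are uncertain to that extent.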

How the data were processed

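Gene expression was measured on 20 one-colour Agilent arrays, 1 per sorted sample. Per the file headers and the submitters' processing notes, the authors read the Cy3 images with Agilent Feature Extraction 10.7.1.1. The deposited intensity of a probe is background-subtracted and detrended within its array and not scaled between arrays. A deposited matrix of log2 values, which Partek is named for in those notes, served as an alternative. Its columns share a median of 8.02 and their quantiles, it correlates with the scanner values at 0.994 or more on every array, and its centring within genes was not stated.

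The signal was taken as log2 minus each array's 75th percentile. Of 58659 probes 20417 (34.8%) matched 1 of 12530 genes of the RefSeq table (an assembly other than a named build of the files, used for names only). Probes had to be well above background on 4 of 18 NK arrays, or 2 of 20 arrays for NK against B cells. Linear models came from limma 3.58.1 under R 4.3.3, with the eBayes options robust and trend on, and Benjamini-Hochberg adjustment over all genes at 0.05 without a block. The NK comparisons used the 18 NK arrays. An error is a standard error unless called SD. The script was tested on simulated data, where added differences were recovered without bias. There each gene's residuals were shuffled across arrays separately, so shifts shared by arrays of a slide or donor were not simulated. Changes of 1 log2 unit were mostly missed in every comparison simulated, and false calls for NK against B cells exceeded the nominal rate, so calls there are liberal.

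Members, compartments, pathway lists and marker lists were chosen with earlier results of these arrays known. Named were the members with a textbook role, and in each comparison the 5 of lowest p in each direction. Of each pathway list the 2 of lowest p were eligible to be named, with those past the threshold. The other ER members, HSPA2, HSPA4L and the small heat shock proteins were named to complete their families after their values were seen. For a probe that no array of a group measured the fold is approximate. Levels of that group below the array's lowest signal well above background were raised to that signal. Alternatives were normexp background correction (offset 50, on the median spot signal and median background, as the files used here hold no mean signal), quantile normalization, other filters and probe rules, slide, donor label or replicate as terms, single slides, array weights, and arrays left out. The donor label joined origin, sex and age, and the replicate 3 arrays, labelled 9, 10, 11 and 12 years, were taken as 1 donor. The arrays' number limits the precision. No sequence is printed, since none was given for these genes.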

Additional observations from a re-analysis of the deposited data

Results flagged for a closer look

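Of 187 groups of 4 or 5 arrays examined, 13 (6.95%) held an array that stood far from the others by Dixon's criterion, which chance meets in about 1 in 20 groups. The dim CD27loCD11blo replicate 4 gave 4 of them: BAG4 at 0.32 and HSPB7 at -0.04 (-0.0385) were the highest of their group, and DNAJB14 at -1.98 and DNAJC15 at -3.71 the lowest. The other dim array, CD27+CD11b+ replicate 4, was lowest for DNAJB11 at -3.29 and highest for DNAJC14 at 2.59. CD27loCD11b+ replicate 5 was lowest for CCT3 at -1.98 and for PFDN6 at -5.78.

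CD27+CD11b+ replicate 2 was lowest for BAG6 at -0.53 and had the highest median of the cytosolic members, 0.50. HSP90AB1 was low on CD27loCD11b+ replicate 1 at 3.42, where the other arrays of that subset lay between 5.13 and 5.66. DNAJC17, a splicing-associated J protein, was low on CD27loCD11blo replicate 1 at -3.43, and DNAJB14 was high on CD27+CD11blo replicate 1 at -0.18. Brightness on these arrays is given with the results, and its part in these values was not tested.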

How the results depend on the processing

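Over 18 main results and 34 settings, 580 values were recomputed. Of these, 29 crossed the threshold or moved by more than the spread between arrays. No value that passed a test changed direction, but 18 medians changed sign, 2 for NK against B cells, 4 for CD27, 7 for CD11b and 5 for CD27loCD11b+ against CD27+CD11blo, and all of these lay between -0.16 and 0.21. The ER median of the CD27 comparison was not among them. Of the members named, 11 of 34 changed sign under at least 1 setting for NK against B cells, 12 of 32 for CD27, 16 of 31 for CD11b, 16 of 33 for CD27loCD11b+ against CD27+CD11blo and 20 of 34 for the interaction. For NK against B cells no member passed in the main fit. With probes well above background on every array 1 of 40 passed (DNAJC4, limma adjusted p 0.0464), as did 196 of 7547 genes. Of 58 members, 1 passed with the mean of a gene's probes (374 of 12388 genes) and 2 with the replicate block (421 genes). Within slide 2, 3 passed (DNAJC4, DNAJA3 and HSPA4L, with 1924 genes). Without the 2 dimmest arrays 1 passed (HSPA4, limma adjusted p 0.0414, with 397 genes), and with array weights 25 did (with 5673 genes). Leaving out single arrays gave 0 to 1. The 1 was DNAJC4, without CD27+CD11b+ replicate 1 (0.0294) or CD27loCD11b+ replicate 4 (0.0335). The members' median was -0.054 with donor label as a term. Over all genes the 362 calls became 196 with the strict filter, 84 with donor label, 600 with slide as a term, 421 with the replicate block, 719 without CD27loCD11b+ replicate 4, 1824 with every probe tested, 1924 within slide 2 and 5673 with array weights. For CD11b the 2 calls became 0 with slide or donor label and 14 with every probe.

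For CD27+ against CD27lo no member passed in the main fit. Of 58 members, 9 passed within slide 1, where 1374 of 12185 genes did, and 17 with array weights, where 3953 of 12185 genes did. Without single arrays 0 to 1 passed. The 1 was DNAJB12 without CD27+CD11b+ replicate 1 (3.12, adjusted p 0.0413). The members' median was 0.68 within slide 1 and -0.039 within slide 2, and the cytosolic median 0.66 within slide 1 and 0.46 with array weights. Without single arrays the ER median ran from 0.73 to 1.61, the highest without CD27+CD11b+ replicate 4, and it lay above the all-gene median under all 32 settings. The all-gene median was -0.13 after quantile normalization. Array weights called 3953 genes there and gave 1 member in the F test, with 206 genes.

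For CD27loCD11b+ against CD27+CD11blo, the medians of members, cytosolic members and ER members were -0.52, -0.58 and -1.41 with the strict filter, -0.51, -0.44 and -1.46 within slide 1, and 0.17, 0.21 and 0.0041 within slide 2. The ER median was -0.16 with donor label, and the members' median ran from -0.47 (without CD27+CD11blo replicate 4) to -0.059 without single arrays. The cause was not tested. The strict filter and single slides test fewer genes or arrays. Same-numbered arrays of different NK subsets deviated together with r between -0.30 and 0.42 over 25 pairs (median 0.22), 17 of them over 0.1. Pairs of other number had a median of -0.068, with 22 of 96 over 0.1. Those of other number on the same slide had a median of 0.037, with 5 of 20 over 0.1. Same-numbered arrays thus deviated together more often than others, but the labels name no animal. The main tests left this pairing out, and the replicate block changed no call of a member outside the NK to B cell comparison. Leaving a slide's arrays alone was not possible for NK against B cells outside slide 2. Dim signal limits CCT8L2, DNAJC25, HSPB2, HSPB3 and PFDN6.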
